A study of Mus musculus with 61 samples.

Results

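Gm2861, Ptn, Plce1 and Xpnpep2 are 4 of the 46078 genes in the count table, chosen by their difference between 2 groups of mouse pancreatic organoid cells: cells sorted for wild-type Ngn3, Pdx1 and MafA and cells sorted for wild-type Ngn3 and MafA without Pdx1. In that comparison 5 of the 24004 genes tested were higher with the Pdx1 reporter at an adjusted p under 0.05, and these 4 are among them. The fifth was Tagln3. All 4 passed the filter on low values. The groups that chose the genes are described here without a test, and cultures infected with a phospho-mutant form of Ngn3 (6SA) served as the check in samples that the choice did not use.

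Pdx1 is a homeodomain transcription factor needed to form the pancreas and later to keep the identity of insulin-producing β-cells. Ngn3 (gene Neurog3) is the basic helix-loop-helix factor that starts the endocrine programme in duct-like progenitors, and MafA is a basic leucine zipper factor of mature β-cells that acts on the insulin gene. The 4 genes have unlike products. Ptn encodes pleiotrophin, a secreted heparin-binding growth factor that signals through the receptor phosphatase Ptprz1, the kinase Alk and cell surface proteoglycans. Plce1 encodes phospholipase C epsilon, an enzyme that answers to Ras and Rap proteins and cleaves a membrane phosphoinositide to release calcium and activate protein kinase C. Xpnpep2 encodes the membrane-bound aminopeptidase P, which removes the first residue of peptides that carry proline next to it, bradykinin among them. Gm2861 is annotated as a long intergenic non-coding RNA.

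The cells came from ductal organoids of C57BL/6 mice, three-dimensional cultures that grow from pancreatic duct cells. Separate lentiviruses carried GFP-Ngn3, LSS-Orange-Pdx1 and tdTomato-MafA under a doxycycline-inducible promoter, a further one carried the transactivator under a PGK promoter, and transgenes were induced for 8 days in all groups. Pools of 50 cells were then sorted by reporter colour and sequenced. The 12 conditions were Pdx1, MafA, Pdx1+MafA, Ngn3+Pdx1, Ngn3+MafA and Ngn3+Pdx1+MafA, each for wild-type (WT) and for 6SA cultures, the latter with a form of Ngn3 whose phosphorylated serines were mutated. Each condition had 2 or 3 biological replicates of 1 to 3 pools each. Replicates 1 and 2 were at passage 2 and replicate 3 at passage 5. A reporter marks a cell that carries a vector, so "with Pdx1" below means sorted for LSS-Orange. Cells without the GFP reporter from 6SA cultures were not sorted for any form of Ngn3. In pools of 50 cells, a lower level per cell and fewer expressing cells cannot be told apart.

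Of 61 libraries 58 had over 1000000 counts on genes. The 3 left out were all from Ngn3+Pdx1+MafA cells, and among them was the sole library of replicate 3 of that 6SA condition, which therefore had n = 2. Summed over pools, the 32 samples held 2579583 to 19461008 counts (median 8490758.5). Levels are CPM (counts per 1000000 gene counts) after TMM scaling, and 3 counts were worth between 0.136 and 1.01 CPM depending on the sample. Duct keratins, Sox9 and Epcam were among 14 duct markers, which summed to 3020 to 70660 CPM over all samples. The p-values measure the spread between the replicates as labelled.

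Ptn (ENSMUSG00000029838) lies on the minus strand of chromosome 6 of GRCm38, from 36714929 to 36810220, with 4 exons in its longest transcript. Plce1 (ENSMUSG00000024998) lies on the plus strand of chromosome 19, from 38481109 to 38785030, with 32 exons. Xpnpep2 (ENSMUSG00000037005) lies on the plus strand of chromosome X, from 48108725 to 48136981, with 21 exons. Gm2861 (ENSMUSG00000105850) lies on the plus strand of chromosome 5, from 97195586 to 97207964, with 2 exons and 666 exonic bases, and overlaps no annotated gene. Of all windows of 50 bases, the read length, in their annotated transcripts, 0 of 617 in Gm2861, 0 of 16084 in Plce1, 2 of 3384 in Ptn and 50 of 4876 in Xpnpep2 also occurred in a transcript of another gene. Reads of these genes could therefore be assigned with few exceptions. Plce1 overlaps the antisense gene Gm28991, which had 12 counts in the whole table.

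Since the genes were chosen by cells sorted for a homeodomain factor, the 250 bases before the RefSeq start sites (GRCm38.p6) are shown for the 3 genes with an entry there, 5′ to 3′ on the gene's strand, with every TAAT, the core that homeodomain proteins bind, and its reverse complement ATTA in capitals. The windows are chr6:36810180-36810429 on the minus strand for Ptn, chr19:38523947-38524196 on the plus strand for Plce1 and chrX:48108475-48108724 on the plus strand for Xpnpep2. The Plce1 start site used by RefSeq, at 38524197, lies inside the annotated gene.
Ptn: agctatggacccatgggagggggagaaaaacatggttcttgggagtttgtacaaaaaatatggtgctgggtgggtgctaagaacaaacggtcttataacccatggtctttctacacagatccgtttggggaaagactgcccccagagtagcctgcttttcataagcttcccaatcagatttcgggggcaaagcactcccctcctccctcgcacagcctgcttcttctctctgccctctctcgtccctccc
Plce1: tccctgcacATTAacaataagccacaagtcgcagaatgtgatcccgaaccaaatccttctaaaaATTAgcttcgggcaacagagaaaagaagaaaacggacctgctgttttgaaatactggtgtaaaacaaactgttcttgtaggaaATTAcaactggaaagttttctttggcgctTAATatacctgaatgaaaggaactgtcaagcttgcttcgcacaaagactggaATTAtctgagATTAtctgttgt
Xpnpep2: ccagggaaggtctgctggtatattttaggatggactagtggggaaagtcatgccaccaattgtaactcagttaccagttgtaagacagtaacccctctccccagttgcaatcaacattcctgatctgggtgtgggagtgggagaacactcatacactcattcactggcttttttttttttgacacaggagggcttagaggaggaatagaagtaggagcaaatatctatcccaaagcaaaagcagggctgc
The Plce1 window held 6 matches to TAAT on either strand and the windows of Ptn and Xpnpep2 held 0, where 54.9% of the 32851 promoter windows of the same length held at least 1. The longer TAATTA, which contains TAAT, was in none of the 3 windows and in 4.84% of all windows. The E-box CANNTG, the kind of site that basic helix-loop-helix factors such as Ngn3 bind, matched 3 times before Xpnpep2, 1 time before Plce1 and 0 times before Ptn, and was present in 66.2% of all windows. TGCTGAC, part of a Maf site, was in none of the 3 windows and in 3.81% of all. The matches describe letters in these windows and not binding.

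In the WT cultures that chose the genes, Gm2861 stood at 42.5, 37.7 and 6.51 CPM in replicates 1, 2 and 3 with the 3 factors, and had no counts in any of the 3 Ngn3+MafA samples. Ptn stood at 94.3, 134 and 6.12 CPM with the 3 factors, and at 0, 0.13 and 0 CPM with Ngn3+MafA. Xpnpep2 stood at 86.3, 80.5 and 16.6 CPM, against 0.0807, 0 and 0.151 CPM. These 3 genes were thus at or near 0 without the Pdx1 reporter, and with it were lowest in replicate 3. Plce1 differed in kind, with 44, 36.3 and 9.7 CPM against 3.63, 1.3 and 0.454 CPM, so that it was also expressed without Pdx1. The comparison called 0.0208% of genes tested as higher and 0.0167% as lower. Just inside the threshold were Xpnpep2 (log2 fold change 9.44, edgeR adjusted p = 0.0452) and Plce1 (4.02, adjusted p = 0.0439), and just outside it were Chrna3 (12.90, adjusted p = 0.0552), a nicotinic receptor subunit, and Lmo1 (10.37, adjusted p = 0.0565). These values are a description of how the genes were picked.

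In the 6SA cultures Ptn and Gm2861 passed the test for the same difference, and Xpnpep2 and Plce1 did not. With 6SA Ngn3, Pdx1 and MafA, Ptn was at 125 and 69.1 CPM in replicates 1 and 2. In 6SA Ngn3+MafA cells it was at 0.0611, 0 and 0 CPM, that is 1 count in 3 samples. The log2 fold change was 11.17 with a standard error (SE, calculated back from the test statistic) of 1.82 (edgeR adjusted p = 0.0296). Over pooled counts the ratio was 3262, with a counting interval (95%, exact) of 585 to 128886 that covers counting error only, since reads carried no molecular identifiers. Gm2861 was at 37.9 and 10.7 CPM with the 3 factors, against 0.183, 0.208 and 0 CPM with Ngn3+MafA, a log2 fold change of 7.29 (SE 1.32, edgeR adjusted p = 0.0371). The test called 12 genes as higher, 0.05% of those tested, and 20 as lower, 0.0833%, and 2 of the 4 genes were among those higher. Both calls needed all 5 samples. Without replicate 1, 2 or 3 of Ngn3+MafA, or replicate 1 or 2 with the 3 factors, neither gene was called (edgeR adjusted p from 0.111 to 0.192 for Gm2861 and from 0.05 to 0.086 for Ptn) and at most 3 genes were, while the log2 fold changes were 6.10 to 7.93 for Gm2861 and 10.69 to 12.85 for Ptn. With the replicate number as a block, Xpnpep2 was called too (6.03, adjusted p = 0.0151), among 125 genes.

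Xpnpep2 was at 73.3 and 21.8 CPM with 6SA Ngn3, Pdx1 and MafA, against 0.611, 0.311 and 0.306 CPM with Ngn3+MafA. Its groups did not overlap, and the log2 fold change of 6.76 (SE 1.55) missed the threshold (edgeR adjusted p = 0.0752). It passed in 6 of 14 alternative fits. Plce1 was at 22.6 and 51 CPM against 5.8, 5.09 and 6.72 CPM, again without overlap. Its log2 fold change of 2.65 (SE 0.75) was the smallest of the 4 and did not pass (edgeR adjusted p = 0.230). The ratio of pooled counts was 6.07 (5.18 to 7.14) for Plce1 and 110 (66.5 to 197) for Xpnpep2. An exact permutation test of 2 against 3 samples cannot give a two-sided p below 0.2, and gave 0.2 for each of the 4 genes.

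**Figure D1:**
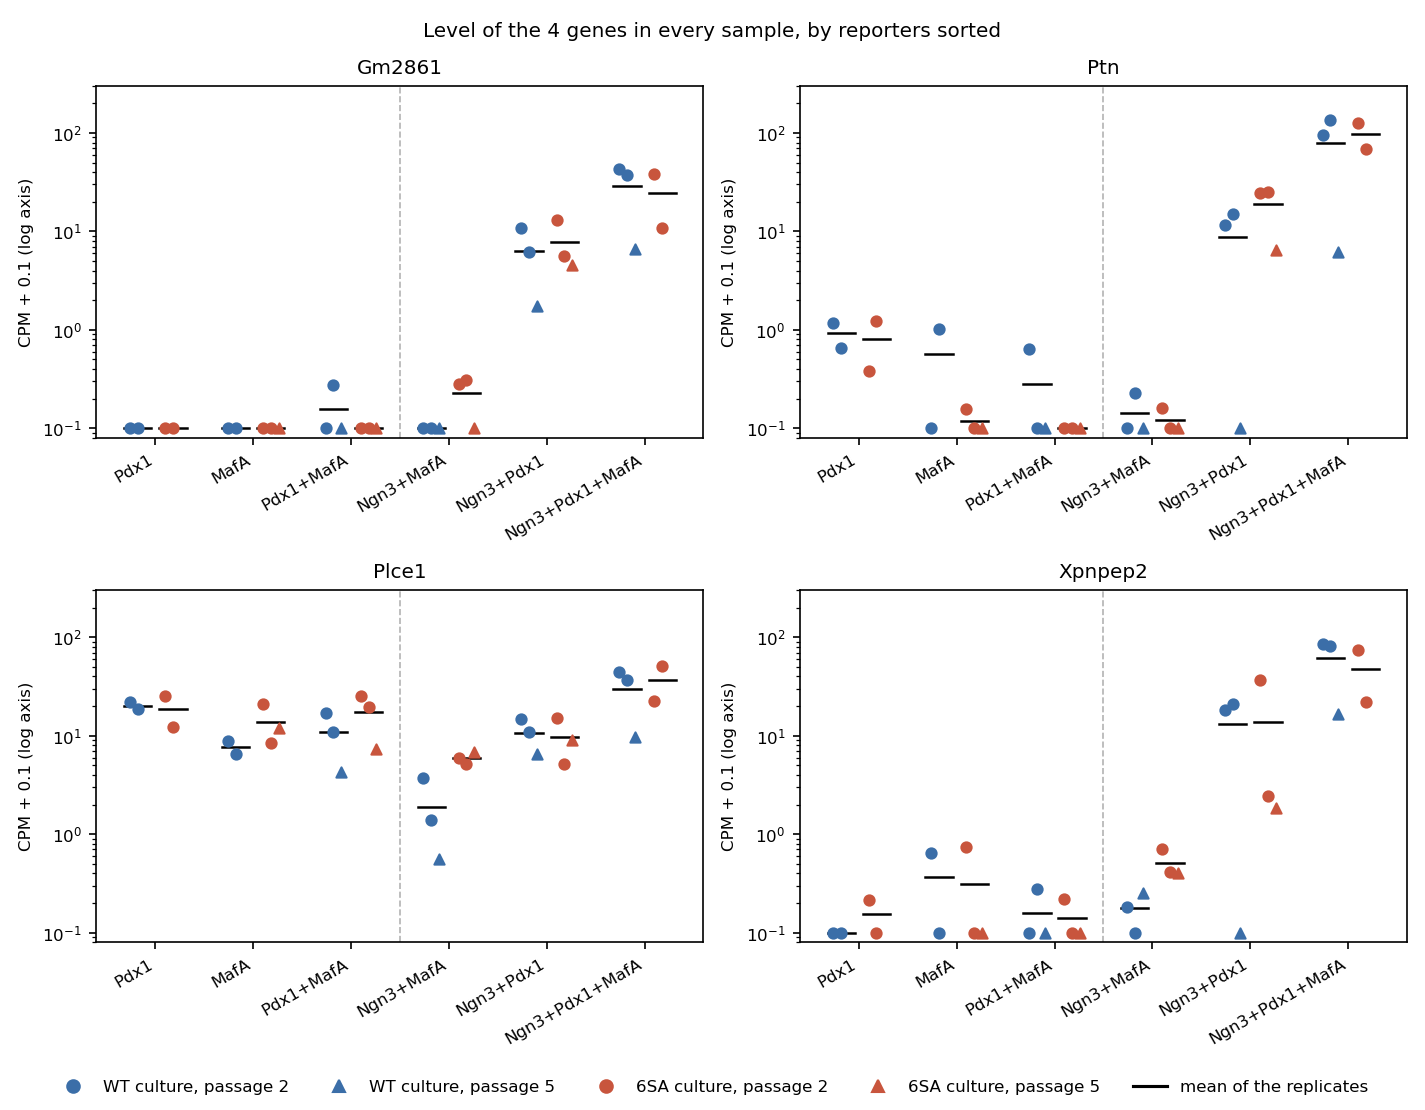
CPM + 0.1 on a log axis in each of the 32 samples for the 4 genes, by the reporters sorted (horizontal axis). Blue marks WT and red 6SA cultures, circles passage 2 and triangles passage 5, and black lines are means. Gm2861, Ptn and Xpnpep2 are near the bottom of the axis except with Ngn3+Pdx1 and Ngn3+Pdx1+MafA, whereas Plce1 has counts in all 32 samples and is lowest in WT Ngn3+MafA cells.

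The levels of the factors and of cell type markers in the same 6SA groups are given beside these values. Pdx1 itself was at 134 to 150 CPM with the 3 factors and at 3.21 to 30.6 CPM with Ngn3+MafA, a log2 fold change of 3.23 (SE 0.80, edgeR adjusted p = 0.115). Counts per gene do not separate vector from endogenous transcripts. Neurog3 was at 163 to 329 CPM with the 3 factors and at 24.9 to 133 CPM with Ngn3+MafA, so these ranges did not overlap either (log2 fold change 1.74, SE 0.93, edgeR adjusted p = 0.556). Mafa was at 3.87 and 12.7 CPM with the 3 factors and at 0.977, 7.79 and 0.306 CPM with Ngn3+MafA (log2 fold change 1.45, SE 1.46, edgeR adjusted p = 0.741). The summed duct markers ranged from 3604 to 4244 CPM with the 3 factors and from 5484 to 13352 CPM with Ngn3+MafA, with 0 of 14 called. The summed endocrine markers ranged from 10718 to 10724 CPM and from 892 to 15124 CPM, with 0 of 14 called. The part of Ngn3 level or of duct content in the difference was not tested. Markers of other cells were low in both groups: 12 fibroblast and stellate markers summed to 0.95 to 7.73 CPM with the 3 factors, with Col1a1, Col1a2, Col3a1, Dcn, Lum and Pdgfrb at 0, and to 0.611 to 13.3 CPM with Ngn3+MafA. Pdgfra averaged 3.17 CPM with the 3 factors and 0.0204 CPM with Ngn3+MafA, and Acta2 0.189 and 3.32 CPM. In WT Ngn3+MafA cells, a group that chose the genes, the same sum ranged from 2.87 to 312 CPM, with Col1a2 highest. The 8 glia and Schwann markers summed to 8.41 to 17 CPM and 14.8 to 21.7 CPM, mostly Erbb3, with Sox10 at 0 in both. The 7 endothelial markers summed to 9.55 to 34.5 CPM and 1.22 to 10.9 CPM, mostly Esam, with Cdh5 and Emcn at 0 in both. The 8 immune markers summed to 37.3 to 40.3 CPM and 11 to 43.7 CPM, mostly Cd68, with Adgre1 at 0 in both. Ptprc averaged 2.07 and 0 CPM and Itgam 0.746 and 3.08 CPM. The 12 acinar markers summed to 6.24 to 19.7 CPM and 0.934 to 6.96 CPM, mostly Bhlha15, with Ptf1a and Cpa1 at 0 in both.

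In cells without Ngn3, none of the 4 genes was called between cells with and without the Pdx1 reporter, and neither was Pdx1 itself. Pdx1 mRNA averaged 19.3 CPM with Pdx1+MafA and 13.8 CPM with MafA in WT cultures, and 25 and 11.4 CPM in 6SA cultures, a log2 fold change over both of 0.79 (SE 0.54, edgeR adjusted p = 1), where it was 3.23 beside 6SA Ngn3+MafA. Mafa mRNA was low in the same groups, at 1.56 CPM with Pdx1+MafA and 0.516 CPM with MafA in WT cultures. In 6SA cultures it averaged 0.639 and 1.55 CPM. The part of Pdx1 or Mafa mRNA level in the lack of calls was not tested. Gm2861 had 1 count over the 15 samples without the Ngn3 reporter, in WT Pdx1+MafA replicate 2, and 0 in the other 14. Xpnpep2 had at most 11 counts in any of them, 0.634 CPM, in 6SA MafA replicate 1. Ptn was at 1.08 and 0.559 CPM in WT Pdx1 cells and at 0.28 and 1.12 CPM in 6SA Pdx1 cells, the only conditions without Ngn3 in which every sample had a count. With Pdx1+MafA it was at 0.536, 0 and 0 CPM in WT cultures and had no counts in the 3 samples of 6SA cultures. Between Pdx1+MafA and MafA cells, 0 of the 24004 genes (0%) were called in either direction in WT, in 6SA or over both cultures (edgeR; 689 genes were under an unadjusted p of 0.05 over both cultures, and DESeq2 called 24). Plce1 was at 17.1, 10.8 and 4.21 CPM with Pdx1+MafA and at 8.78 and 6.48 CPM with MafA in WT cultures, and at 25.3, 19.5 and 7.29 CPM and 21, 8.43 and 11.9 CPM in 6SA cultures. The groups overlapped, and the log2 fold change over both cultures was 0.41 (SE 0.51, edgeR adjusted p = 1).

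Whether the difference that goes with Pdx1 depended on Ngn3 was tested as an interaction in the 6SA cultures. No gene passed it (0% of genes tested in either direction, with 1407 under an unadjusted p of 0.05 in edgeR and 68 called by DESeq2). For Xpnpep2 the difference with Ngn3 exceeded that without it by 8.89 on the log2 scale (SE 2.26, edgeR adjusted p = 0.447). For Plce1 the excess was 2.32 (SE 1.00, adjusted p = 0.835) and for Ptn 13.05 (SE 4.91, adjusted p = 0.835). Gm2861 had no counts in both groups without Ngn3, so that the model gave it no usable estimate. Ptn and Xpnpep2 passed in DESeq2 and without a gene filter. The main test thus did not establish that the Pdx1 difference of these genes depended on Ngn3. Pdx1 mRNA itself had an excess of 2.12 (SE 1.05, edgeR adjusted p = 0.843), and its part in these values was not tested.

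Adding Ngn3 to Pdx1 was tested in cells that the choice of genes did not use, and 3 of the 4 genes rose. In WT Ngn3+Pdx1 cells Gm2861 was at 10.8, 6.07 and 1.64 CPM and in 6SA Ngn3+Pdx1 cells at 13, 5.46 and 4.45 CPM, while the 4 samples sorted for Pdx1 alone had no counts. Its log2 fold change over both cultures was 9.08 (SE 1.38, edgeR adjusted p = 0.00101), a value that depends on the prior count where a group is at 0. Against 3 counts over the Pdx1 group, it was at least 38.3-fold higher in WT and at least 87.6-fold higher in 6SA cultures. Xpnpep2 was at 18.2, 20.9 and 0 CPM in WT and at 36.8, 2.32 and 1.75 CPM in 6SA Ngn3+Pdx1 cells, against 0 and 0 CPM and 0.112 and 0 CPM with Pdx1 alone. It rose by a log2 fold change of 8.69 (SE 1.63, edgeR adjusted p = 0.00306), although WT replicate 3 had no count. Ptn was at 11.4, 14.8 and 0 CPM in WT and at 24.7, 25 and 6.36 CPM in 6SA Ngn3+Pdx1 cells, and its rise of 4.04 (SE 1.05) was just under the threshold (edgeR adjusted p = 0.0491). The comparison called 317 genes as higher (1.32% of those tested) and 41 as lower (0.171%). With the replicate number as a block, it called 1011 genes in place of 358 and the same 3 of the 4 genes. Ptn lost its call in 10 of 19 alternatives, among them without either Pdx1 sample of either culture and without replicate 1 or 2 of either Ngn3+Pdx1 group (adjusted p up to 0.28), and Xpnpep2 lost its call without WT Pdx1 replicate 1 or 2 or 6SA Pdx1 replicate 2 (adjusted p up to 0.0782). In the same comparison 13 of 14 endocrine markers rose and 1 of 14 duct markers fell, while Pdx1 mRNA had a log2 fold change of 0.35 (SE 0.56, edgeR adjusted p = 0.962), and the part of cell type in the rise was not tested. The total of 358 genes became 117 to 123 without any 1 of the 4 Pdx1 samples.

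Plce1 did not follow. It was at 14.6, 10.8 and 6.4 CPM with WT Ngn3+Pdx1 and at 21.7 and 18.4 CPM with Pdx1 alone, and in 6SA cultures at 15, 5 and 8.91 CPM against 25.3 and 12.1 CPM. The log2 fold change over both cultures was -0.94 (SE 0.52, edgeR adjusted p = 0.495). In WT cultures every Ngn3+Pdx1 sample was below both Pdx1 samples, and in 6SA cultures the groups overlapped.

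In cells sorted for the MafA reporter the same 3 genes rose with Ngn3. Between 6SA cells with the 3 factors and 6SA Pdx1+MafA cells, Ptn had a log2 fold change of 12.88 (SE 2.04, edgeR adjusted p = 0.000384) and was at least 1032-fold higher, since Pdx1+MafA cells had no counts. Gm2861 had 10.89 (SE 1.68, adjusted p = 0.000726) and was at least 268-fold higher. Xpnpep2 had 9.40 (SE 1.82, adjusted p = 0.00231), from 2 counts in Pdx1+MafA cells to 1332 with the 3 factors. Plce1 had 1.08 (SE 0.73, adjusted p = 0.410) and its groups overlapped. Here 790 genes were called as higher, 3.29% of those tested, and 600 as lower, 2.5%. Among them 14 of 14 endocrine markers rose, from a sum of 7.66 to 37 CPM to one of 10718 to 10724 CPM, and 8 of 14 duct markers fell, from a sum of 24187 to 35116 CPM to one of 3604 to 4244 CPM. Pdx1 mRNA was at 14 to 36.4 CPM with Pdx1+MafA and at 134 to 150 CPM with the 3 factors (log2 fold change 2.50, SE 0.78, edgeR adjusted p = 0.0549). Mafa mRNA was at 0 to 1.44 CPM with Pdx1+MafA and at 3.87 to 12.7 CPM with the 3 factors (log2 fold change 3.68, SE 1.56, edgeR adjusted p = 0.175). The part of Pdx1 level, of Mafa level and of cell type in the rise of the 3 genes was not tested. Each of these 3 calls held in all 14 alternatives, while the total of 1390 genes became 560 to 944 when any 1 of the 5 samples was left out. The samples with the 3 factors are those of the comparison with Ngn3+MafA above.

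Ngn3 was also compared without Pdx1. Between 6SA Ngn3+MafA and 6SA MafA cells none of the 4 was called, where 1.17% of genes were called as higher and 0.404% as lower. The total of 377 genes became 182 to 398 when 1 sample was left out, and was lower by over 1.5 times without Ngn3+MafA replicate 2 (196) or MafA replicate 1 (219), 2 (189) or 3 (182). Ptn had 1 count in each group, and Gm2861 had 5 counts against 0. Xpnpep2 was at 0.611, 0.311 and 0.306 CPM against 0.634, 0 and 0 CPM, with overlap. Plce1 was at 5.8, 5.09 and 6.72 CPM against 21, 8.43 and 11.9 CPM, lower in every sample without passing the test (log2 fold change -1.24, SE 0.68, edgeR adjusted p = 0.491). In the same comparison 12 of 14 endocrine markers rose, among them Neurod1, a direct target of Ngn3 (11.30, SE 1.28, adjusted p = 1.4e-05), and Pcsk1, a prohormone convertase, rose by 10.96 (SE 1.32, adjusted p = 2.6e-05). The cells with Ngn3+MafA thus expressed endocrine genes while Ptn, Gm2861 and Xpnpep2 were near 0.

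**Figure D2:**
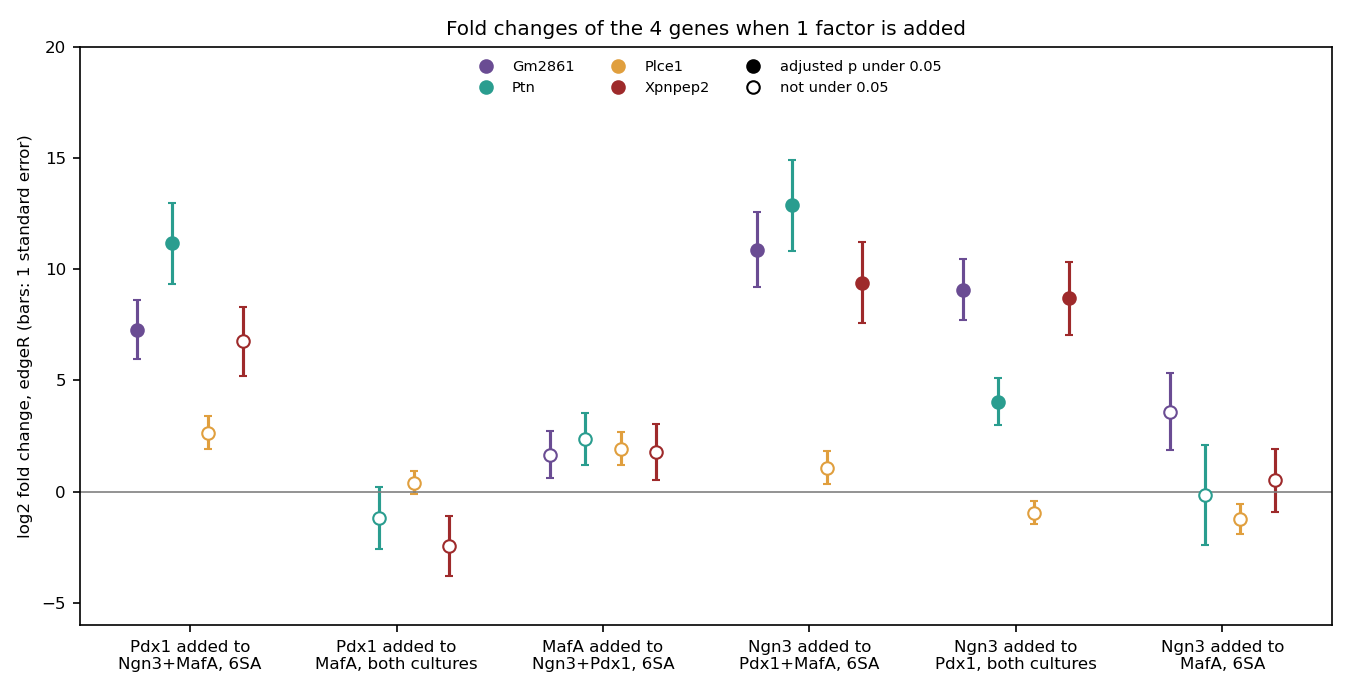
Log2 fold change (vertical axis, edgeR, bars of 1 SE) of each gene when 1 reporter is added, for 6 comparisons. Filled points passed an adjusted p of 0.05. Gm2861 is not drawn where Pdx1 was added to MafA, because its groups had 0 or 1 count. Ptn, Gm2861 and Xpnpep2 passed where Ngn3 was added to Pdx1 or Pdx1+MafA, and Ptn and Gm2861 where Pdx1 was added to Ngn3+MafA.

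The 3 genes were also detected in cells sorted without MafA. In 6SA Ngn3+Pdx1 cells, Gm2861, Ptn and Xpnpep2 were above every 6SA Ngn3+MafA sample. Set against Ngn3+MafA, their log2 fold changes were 5.63 (SE 1.22, edgeR adjusted p = 0.716), 8.81 (SE 1.71, adjusted p = 0.279) and 4.97 (SE 1.41, adjusted p = 1), and Plce1 had 0.72 (SE 0.67, adjusted p = 1) with overlapping groups. No gene was called (0% in either direction; 1009 genes under an unadjusted p of 0.05 in edgeR and 15 called by DESeq2). Replicate numbers paired these samples, and with the number as a block 12 genes were called, among them Ptn (9.56, SE 1.29, adjusted p = 0.000902) and Gm2861 (5.93, SE 1.00, adjusted p = 0.0246). Exact permutation tests gave a two-sided p of 0.1 for these 3 genes, the smallest that 3 against 3 samples allow. Adding MafA to 6SA Ngn3+Pdx1 called 0.0458% of genes as higher and 0.154% as lower, and none of the 4. Pdx1 mRNA had a log2 fold change of 2.03 here (SE 0.77, edgeR adjusted p = 0.461). The total of 48 genes became 117 without 6SA Ngn3+Pdx1 replicate 1 and 0 to 7 without any other sample. The log2 fold changes were 2.37 (SE 1.18, adjusted p = 0.607) for Ptn, 1.93 (0.74, adjusted p = 0.460) for Plce1, 1.79 (1.27, adjusted p = 0.699) for Xpnpep2 and 1.66 (1.05, adjusted p = 0.665) for Gm2861. Ptn and Plce1 were higher with the 3 factors in every sample, and the other two overlapped. Duct markers summed to 3604 to 4244 CPM with the 3 factors and to 6195 to 24533 CPM with 6SA Ngn3+Pdx1. Endocrine markers summed to 10718 to 10724 CPM and to 1721 to 9424 CPM. The part of Pdx1 level and of cell type in these differences was not tested.

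The order of the 12 conditions was alike for Gm2861, Ptn and Xpnpep2 at the top. Their highest 4 means were those of the 3 factors and of Ngn3+Pdx1 in the WT and 6SA cultures, and neighbours among these 4 overlapped for each gene. Below these 4 conditions, the ranges were separate for Gm2861, from a mean of 6.17 CPM in WT Ngn3+Pdx1 to 0.13 CPM in 6SA Ngn3+MafA. For Ptn and Xpnpep2 they overlapped at that step, because WT Ngn3+Pdx1 replicate 3 had no count of either. Plce1 spread over all conditions. Its means ran from 36.8 CPM in 6SA and 30 CPM in WT cells with the 3 factors, through 20.1 and 18.7 CPM in WT and 6SA Pdx1 cells, to 5.87 CPM in 6SA and 1.8 CPM in WT Ngn3+MafA cells. Only the last step, between the 2 Ngn3+MafA groups, was without overlap. Per kilobase of exon, the 6SA cells with the 3 factors held Gm2861 at 36.5 CPM per kb, Ptn at 28.2, Xpnpep2 at 9.75 and Plce1 at 2.3 CPM per kb, and the ranges of Gm2861 (16 to 56.9) and Ptn (20.1 to 36.3) overlapped.

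Replicate 3, at passage 5, was the lowest of its group for all 4 genes in WT Ngn3+Pdx1 and WT Ngn3+Pdx1+MafA cells. In the same samples Neurog3 was at 7.87 and 14.6 CPM, the lowest of each group, and the endocrine markers summed to 1228 and 1512 CPM, against 3801 to 7467 CPM in replicates 1 and 2. In 6SA Ngn3+Pdx1 cells replicate 3 was also the lowest for Gm2861, Ptn and Xpnpep2, and the endocrine markers summed to 1721 CPM there, against 9424 and 2374 CPM. Neurog3 was not the lowest there, at 38.8 CPM against 226 and 34.9 CPM. Pdx1 mRNA was lowest in replicate 3 of each of these groups. It was at 9.84 CPM in WT Ngn3+Pdx1 cells, against 32 and 36.8 CPM. In WT cells with the 3 factors it was at 30.8 CPM, against 164 and 191 CPM. In 6SA Ngn3+Pdx1 cells it was at 21.8 CPM, against 48.3 and 34.4 CPM. The part of passage and those of Ngn3 and Pdx1 level were not tested.

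Single pools of 50 cells were compared without the WT groups that chose the genes and without the 3 libraries left out, which leaves 14 pools with Ngn3 and Pdx1, 6 with Ngn3+MafA and 29 without Ngn3. Here CPM is per total gene counts of the library. Gm2861 had 10 to 230 counts in all 14 pools with both reporters, at most 2 in the 6 Ngn3+MafA pools and at most 1 in the 29 without Ngn3. Ptn had a count in 13 of the 14 pools (median 16.2 CPM), in 1 of 6 and in 11 of 29, where it reached 2.92 CPM. Xpnpep2 had a count in 13 of 14, 4 of 6 and 6 of 29 pools, with medians of 17.8, 0.288 and 0 CPM. Plce1 had a count in 14 of 14, 5 of 6 and 29 of 29 pools, with medians of 13.2, 5.65 and 15.2 CPM. Pools of the same culture could differ widely. In 6SA Ngn3+Pdx1+MafA replicate 1, Xpnpep2 had 906, 173 and 2 counts in its 3 pools, or 145, 36.7 and 0.745 CPM, where Ptn was at 135, 118 and 164 CPM. In 6SA Ngn3+Pdx1 replicate 1, Gm2861 was at 32.3, 3.39 and 6.03 CPM and Xpnpep2 at 38.6, 11.5 and 75.9 CPM, so that the pool highest in one was not the highest in the other.

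Pools with and without Ngn3 shared a range of Pdx1 mRNA, from 9.91 to 41.2 CPM. Leaving out the samples that chose the genes, 26 pools without the Ngn3 reporter, 4 pools with Ngn3 and Pdx1 and 4 pools with Ngn3+MafA lay in it. Gm2861 had 0 or 1 count in the 26 and 10 to 99 counts in the 4. Ptn was at 0 to 2.92 CPM in the 26 (median 0) and at 0 to 33.2 in the 4 (median 10.2), and Xpnpep2 at 0 to 1.67 and 0 to 11 CPM (median 1.54 in the 4). Plce1 had the reverse order, with medians of 16.2 CPM in the 26 and 7.31 in the 4. The 4 Ngn3+MafA pools in this range had higher medians of Pdx1 mRNA (28.9 against 19.4 CPM) and of Neurog3 (116 against 38.6 CPM) than the 4 with Ngn3 and Pdx1. In them Gm2861 had 0 to 2 counts, Ptn was at 0 to 0.157 CPM and Xpnpep2 at 0 to 1.79 CPM, and Plce1 had a median of 5.65 CPM. Mafa had 0 counts in the 4 pools with Ngn3 and Pdx1 and a median of 1.17 CPM in the 4 with Ngn3+MafA, so these sets differed in MafA too. Pools of one culture are not independent, and these values are given without a test. The part of any factor level in them was not tested.

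**Figure D3:**
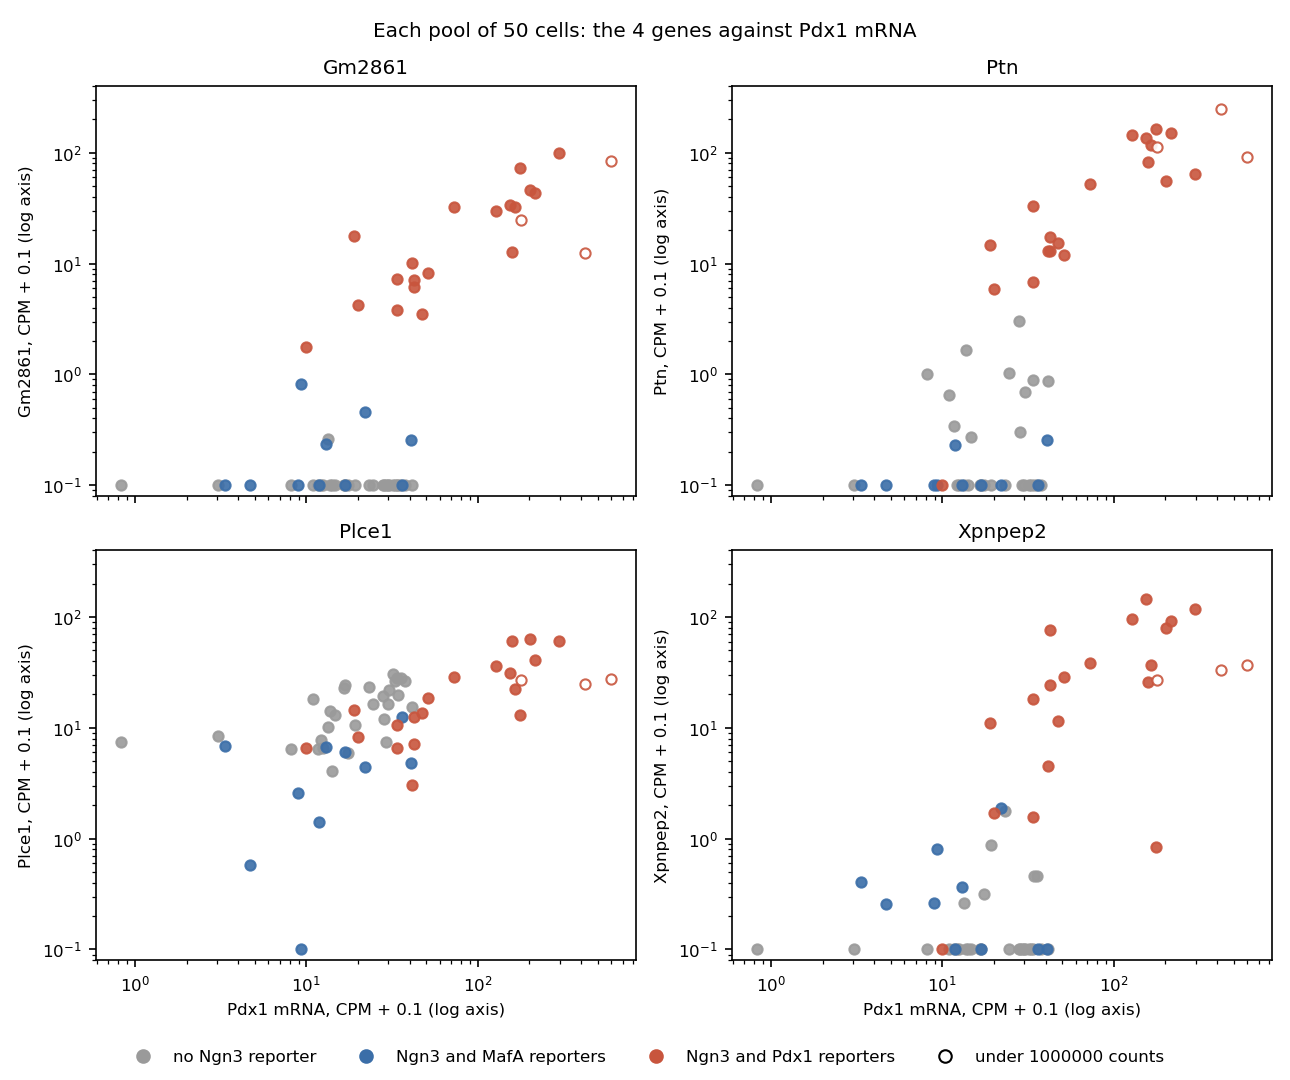
Each of the 61 pools as 1 point, with Pdx1 mRNA on the horizontal and each gene on the vertical axis (CPM of the library total + 0.1, log axes). Grey pools lacked the Ngn3 reporter, blue pools carried Ngn3 and MafA, red pools carried Ngn3 and Pdx1, and open circles are the 3 libraries under 1000000 counts. The pools of the groups that chose the genes are included, and above 41.2 CPM of Pdx1 mRNA all pools are red.

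Other genes of the pathways were read against the share of all genes called between 6SA Ngn3+Pdx1+MafA and 6SA Ngn3+MafA cells, 0.05% higher and 0.0833% lower, so that 0 calls in a list of this size are no result about the list. Of 20 other pleiotrophin and midkine ligands, receptors and co-receptors, 0 were called in that comparison, with a median log2 fold change of -0.28, against 0.00 over all genes tested. Among them the receptor Alk was at 2.52 and 0.364 CPM (log2 fold change 2.70, SE 1.75, edgeR adjusted p = 0.624) and Ptprz1 at 0.383 and 0 CPM. Notch2 came nearest to the threshold, at 8.73 and 66.5 CPM (-2.93, SE 0.64, adjusted p = 0.0571). When Ngn3 was added to Pdx1+MafA, 3 of the 20 fell, where 2.5% of all genes did and 3.29% rose. They were the proteoglycans Sdc4 (-4.19, SE 0.86, edgeR adjusted p = 0.0038) and Sdc1 (-2.30, SE 0.62, adjusted p = 0.0239), and Notch2 (-2.76, SE 0.63, adjusted p = 0.00864). Ptn rose in the comparison in which these 3 genes fell.

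Of 15 other phosphoinositide phospholipase C genes, 0 were called with Pdx1 in the 6SA cultures, with a median of 1.34. Plcxd3, a phospholipase C-like gene, was at 200 and 62.2 CPM (log2 fold change 1.68, SE 1.14, edgeR adjusted p = 0.634). It rose with Ngn3 in the presence of Pdx1+MafA by 10.69 (SE 1.72, edgeR adjusted p = 0.000444), and Plcb4 rose by 2.97 (SE 0.69, adjusted p = 0.00939) while Plcd3 fell by 2.95 on the log2 scale (SE 0.77, adjusted p = 0.0212). Of 26 genes upstream or downstream of phospholipase C epsilon, 0 were called with Pdx1 (median -0.17), and 2 rose with Ngn3 beside Pdx1+MafA, where 3.29% of all genes did. These were Rapgef4, the cAMP-activated exchange factor for Rap in β-cells (9.01, SE 1.39, edgeR adjusted p = 0.000267), and Prkce, a protein kinase C (3.74, SE 0.71, adjusted p = 0.00196).

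Of 18 other membrane and proline-specific peptidases, 0 were called with Pdx1 (median -0.38). Anpep, the membrane alanyl aminopeptidase, rose with Ngn3 beside Pdx1+MafA (5.84, SE 1.59, edgeR adjusted p = 0.0302) and beside 6SA MafA (10.08, SE 2.01, adjusted p = 0.00815). Of 5 genes of the kinin system, 0 were called with Pdx1 (median 0.00), and Serping1, an inhibitor of plasma kallikrein, rose with Ngn3 beside Pdx1+MafA (9.42, SE 1.54, edgeR adjusted p = 0.000426). Of 15 reported Pdx1 target genes of β-cells, 0 passed in the same 6SA comparison, although 13 were higher and the median of the 15 was 2.78. The 13 include 2 factors carried by the vectors, Pdx1 (3.23), by which the groups were sorted, and Mafa (1.45). Ins1 was at 35.7 CPM with the 3 factors and had no counts with Ngn3+MafA (edgeR adjusted p = 0.120), and Iapp, the amyloid hormone of β-cells, was at 1057 and 17.2 CPM (5.93, SE 1.97, adjusted p = 0.317). With Ngn3 beside Pdx1+MafA, 7 of the 15 rose, where 3.29% of all genes did.

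**Figure D4:**
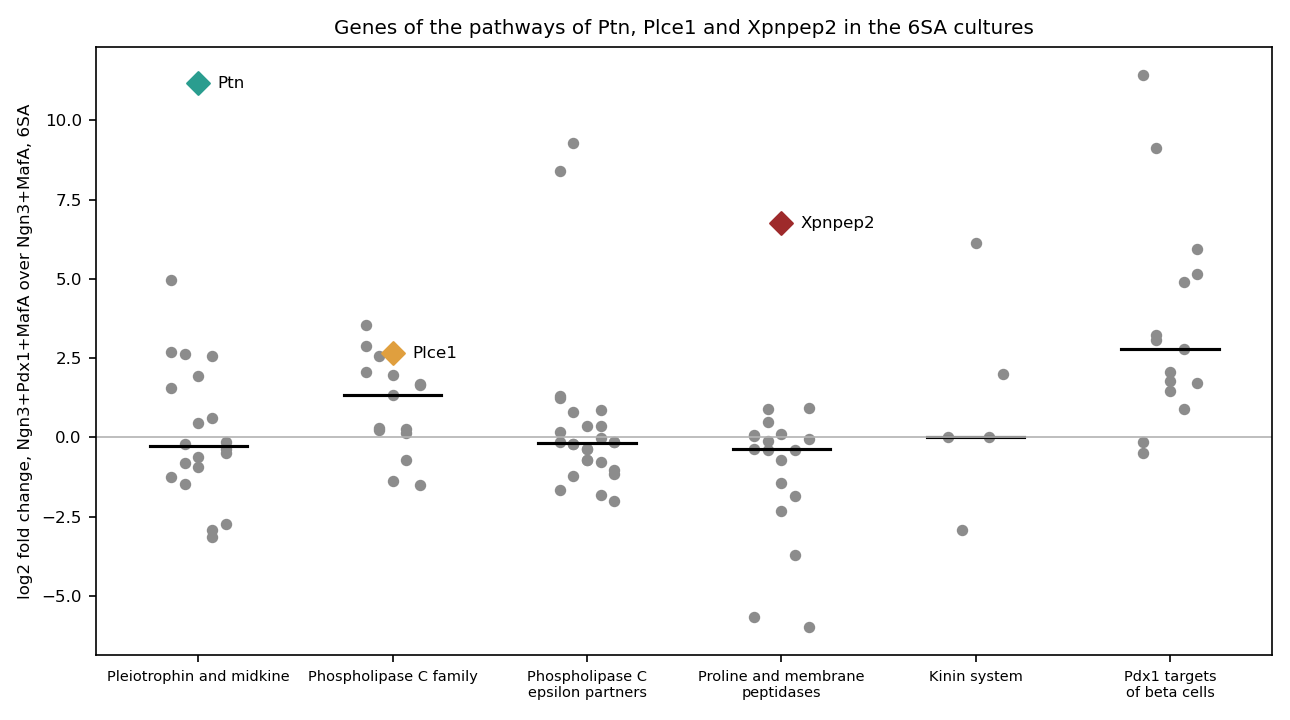
Log2 fold change between 6SA Ngn3+Pdx1+MafA and 6SA Ngn3+MafA cells (vertical axis, edgeR) of each tested gene of 6 lists, with Ptn, Plce1 and Xpnpep2 as coloured diamonds and the median of the other genes as a black line. Ptn and Xpnpep2 stand above all other genes of their lists, and Plce1 at 2.65 lies within its own.

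The genes whose pattern was most like each of the 4 were ranked by Pearson's r of log2(CPM + 1) over the 26 samples outside the choosing groups, among 14059 genes with a mean of at least 1 on that scale. These samples share cultures and the split by Ngn3, and the values are a description. Gm2861 was most like Fgf12 (r = 0.969), Tagln3 (0.956), Myt1l (0.95), Ptn (0.946) and Xpnpep2 (0.946). Ptn was most like Tagln3 (0.955), Slc24a2 (0.954), Gm2861 (0.946), Chrnb4 (0.943) and Myt1l (0.933). Xpnpep2 was most like Myt1l (0.949), Chrna3 (0.948), Slc24a2 (0.948), Gm2861 (0.946) and Chrnb4 (0.943). Several of these are best known from neurons: Myt1l encodes a zinc finger factor of neurons, Fgf12 an intracellular partner of sodium channels, and Chrna3 and Chrnb4 subunits of one nicotinic acetylcholine receptor. In 6SA cells with the 3 factors, Ngn3+Pdx1 and Ngn3+MafA, Chrna3 averaged 121, 7.61 and 0.0204 CPM, Fgf12 44.2, 7.21 and 0.859 CPM, and Tagln3 428, 55 and 1 CPM. Plce1 was like none of the other 3 (r = 0.239 to 0.341, ranks 2431 to 3875). Its nearest genes were Il17rc (0.781), Gpd1 (0.755), Cask (0.743), Atp9a (0.739) and Ints1 (0.727), with lower values throughout. Over all 32 samples, 4 of these 5 genes remained for Gm2861, 3 for Ptn, 2 for Xpnpep2 and 2 for Plce1.

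No gene next to the 4 on their chromosomes that was tested was called with Pdx1 in the 6SA cultures. Dgki, 35802 bases from Ptn, was at 2.92 and 0.44 CPM in 6SA cells with the 3 factors and with Ngn3+MafA (log2 fold change 2.67, edgeR adjusted p = 0.639). Apln, before Xpnpep2, had 114 counts in the whole table and Sash3, after it, had 2. Noc3l, which starts 3098 bases after Plce1, was at 11 and 17.4 CPM (-0.67, adjusted p = 0.712). The pseudogene Gm5560 next to Gm2861 was at 3.78 and 3.1 CPM (0.28, adjusted p = 0.963), and both it and Noc3l had counts in all 32 samples.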

How the data were processed

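RNA from pools of 50 sorted cells was sequenced as single-end reads. Per the labels and methods, the authors aligned them with GSNAP to mm10 and assigned them to Ensembl genes with HTSeq (0.5.3p3). They deposited raw counts per gene and library for 46078 genes and 92 spike-ins, without normalization. Whether counting used strand is not given in the sources used here. Symbols and positions came from GENCODE vM21 (GRCm38, 45229 genes matched) and promoter sequences from RefSeq, which held 3 of the 4 genes.

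Libraries with over 1000000 gene counts, under 25% spike-in counts and over 10000 detected genes were kept and technical repeats summed. These criteria, taken from the study's methods, left out fewer libraries here than the methods state, and the study's own selection was not used here. The 24004 genes tested had counts in 5 or more libraries, and their log2(CPM + 1) varied by more than 0.001 (variance). One model of the 12 conditions was fitted with edgeR 4.0.16 in R 4.3.3 (TMM, trended dispersion, quasi-likelihood test, legacy setting), with Benjamini-Hochberg adjustment over all genes tested and a threshold of 0.05. Each SE is the absolute log2 fold change divided by the square root of the F statistic of that test. It is therefore approximate, above all where a group is near 0 counts. Code was tested on simulated data. Single genes were also compared by two-sided exact permutation tests of log2(CPM + 1), and ratios of pooled counts carry exact 95% intervals. Folds against groups at 0 used 3 counts over the group.

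The 4 genes, gene lists and comparisons were chosen with earlier results of these data known. Named beside the 4 were list genes past the threshold, the reprogramming factors, genes next to the threshold of the choosing comparison, the 5 most alike genes and neighbours. List genes named without passing, the values by pool at a shared Pdx1 level and the order within passages were chosen after their values were seen. Alternatives were DESeq2 1.42.0 (the study's tool), RLE size factors, filterByExpr, no gene filter, no legacy setting, only the conditions compared, all libraries, the first technical repeat, other pseudocounts, each replicate left out and the replicate number as a block. In comparisons with 3 or more pairs, same-numbered samples deviated together, by correlations over the 5000 most expressed genes. These were 0.283 to 0.613 for 6SA Ngn3+Pdx1 and Ngn3+MafA, and 0.519 to 0.756 for Ngn3+Pdx1 and Pdx1. They were 0.234 to 0.441 for 6SA Ngn3+MafA and MafA, and 0.257 to 0.821 for Pdx1+MafA and MafA over both cultures. The comparison of the 3 factors with Ngn3+MafA in 6SA cultures had 2 pairs (0.193 and 0.445). Same-numbered samples did not deviate together between 6SA cells with the 3 factors and Pdx1+MafA cells (-0.423 and -0.361). Between the 3 factors and 6SA Ngn3+Pdx1 the values were -0.335 and 0.186.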

Additional observations from a re-analysis of the deposited data

Results flagged for a closer look

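The 3 libraries left out for low totals were all of Ngn3+Pdx1+MafA cells, and entered no test other than the alternative fit of all libraries. Their CPM of the library total was above the highest Ngn3+MafA pool of the same culture in 12 of 12 cases, and the lower limit of the exact 95% interval was in 11 of 12, which is what drew attention to them. A case is 1 of the 4 genes in 1 of the 3 libraries, so the cases are not independent. The cases of the WT library were set against samples that chose the genes and repeat that choice. The share of all genes above those pools is not given here. In the library of 6SA replicate 3, with 408733 counts, Gm2861 stood at 24.5 (10 counts), Ptn at 113 (46 counts), Plce1 at 26.9 (11 counts) and Xpnpep2 at 26.9 (11 counts) CPM. This is the only library of that replicate, and the highest 6SA Ngn3+MafA pools stood at 0.713, 0.157, 12.4 and 1.79 CPM in the same order. In the library of 6SA replicate 2, with 241563 counts, Gm2861 stood at 12.4 (3 counts), Ptn at 248 (60 counts) and Xpnpep2 at 33.1 (8 counts) CPM, while Plce1 stood at 24.8 (6 counts) with an exact 95% interval from 9.12 to 54.1 CPM that reached below 12.4. In the library of WT replicate 2, with 625650 counts, Gm2861 stood at 84.7, Ptn at 91.1, Plce1 at 27.2 and Xpnpep2 at 36.8 CPM. The WT Ngn3+MafA pools held at most 5.98 CPM for any of the 4, but the genes were chosen for being lower there.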

How the results depend on the processing

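With 2 or 3 samples a group and levels near 0 on one side, calls hung on single samples. Between 6SA cells with the 3 factors and Ngn3+MafA, 4 of the 4 genes passed in DESeq2 and 0 without any 1 sample, where log2 fold changes ran from 6.10 to 7.93 for Gm2861 and from 10.69 to 12.85 for Ptn. Plce1 passed in DESeq2 (2.69) only. Xpnpep2 passed in DESeq2 (6.87), without a gene filter (6.72), without the legacy setting (6.68), with the first technical repeat (8.51), with only the conditions compared (6.72) and with the replicate block (6.03). The genes called in all were 419 in DESeq2, 590 without a filter, 180 without the legacy setting, 367 with only the conditions compared and 125 with the block, against 32. In the interaction, 2 of the 4 genes passed in DESeq2 and 2 without a filter, among 68 and 271 genes in all, and the block called 10 genes and the fit of only the conditions compared 11, against 0. Between Pdx1+MafA and MafA over both cultures, DESeq2 called 24 genes, the fit without a filter 61 and the block 2, against 0. Between 6SA Ngn3+Pdx1 and Ngn3+MafA, 2 passed in DESeq2, 3 without a filter, 2 with the block and 1 with only the conditions compared, and 15, 183, 12 and 4 genes in all. For Ngn3 added to Pdx1, 1 to 3 of the 4 genes passed when a sample was left out, and 911 genes were called in DESeq2, 1273 without a filter and 684 without the legacy setting, against 358. For Ngn3 added to Pdx1+MafA the totals were 2901, 2463 and 2567, and 2447 with the block and 2613 with only the conditions compared, against 1390. For MafA added to Ngn3+Pdx1 they were 465, 613, 124, 136 and 129 against 48, and for Ngn3 added to MafA 1126, 1257, 648, 923 and 798 against 377. In the WT comparison that chose the genes, 0 to 4 of them passed when a sample was left out, and 552 genes were called in DESeq2, 727 without a filter, 233 without the legacy setting and 354 with the block, against 9. Between Pdx1+MafA and MafA, signs turned at these low counts. Ptn in WT cultures was at 0.15 with the block, 0.01 without the legacy setting and -4.70 to 4.21 without 1 sample, and over both cultures at -3.28 to 1.17. Xpnpep2 was at -4.81 to 2.05 in WT and -4.56 to 2.43 in 6SA cultures without 1 sample, and with the first technical repeat at 2.69 in 6SA and 0.09 over both cultures. Plce1 was at -0.03 to 0.83 in WT and -0.05 to 0.78 in 6SA cultures. The cause of these differences was not tested. The replicate block changed no call of the 4 genes other than those given here and in the text.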
